A study of Drosophila melanogaster with 17 samples.

Results

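A set of 71 genes each had a probe set whose signal in Drosophila melanogaster mushroom body neurons was highest at puparium formation (0 h). The messenger RNA signal of these probe sets at 0 h lay above that in larvae before it and in pupae 5 h after it. A gene entered the set when the lowest 0 h value of its probe set exceeded every value at -18 h and at 5 h. The 0 h mean also had to exceed both other means by at least 0.4 log2 units. The rule was applied to probe sets with 1 gene symbol, and symbols starting with Rp, Pros, ND- or mRp were left out. It took 71 of 13966 probe sets, or 71 of the 12259 that were eligible (0.579%), with 1 member for each gene. For 17 of the genes the array held other probe sets, and these did not meet the rule. The members were selected on these log2 signals at -18 h, 0 h and 5 h, so the peak itself is given below as a description, with no test.

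The study followed mushroom body neurons through the start of metamorphosis, when part of them begin to lose their larval axons. All animals had the genotype yw;UAS-mCD8::GFP/+;;OK107-GAL4, so every group carried a membrane-bound green fluorescent protein, switched on by the OK107-GAL4 driver, which is active in mushroom body neurons. There were 7 arrays of larvae of the third instar with dark blue guts, staged with bromophenol blue in the food to about 18 h before puparium formation and before the ecdysone pulse. The other groups were 7 arrays of newly formed white prepupae (0 h) and 3 arrays of such animals aged for 5 h. Cell bodies were cut from frozen sections by laser, 40 captures of about 100 cell bodies were pooled for each array, and the RNA was amplified before labelling. The replicates are named biological, but how many animals went into a pool is not stated, and p-values measure the spread between these pools. In pooled tissue, fewer cells of a type and less RNA per cell cannot be told apart.

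Metamorphosis in flies is set off by the steroid hormone 20-hydroxyecdysone, which binds a heterodimer of the nuclear receptors EcR and usp. The bound receptor switches on an early set of genes, many of them transcription factors, which then act on later targets. In the mushroom body, the gamma neurons answer the hormone by pruning their axon branches and dendrites early in the pupa and growing adult branches later, while the other neuron types of this structure keep theirs. Sox14, which is among the members, is an ecdysone-induced transcription factor known to be needed for this pruning.

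The arrays were alike in overall level, with medians between 4.32 and 4.43 on the log2 scale and correlations within a group between 0.960 and 0.994. Of the 20 mushroom body markers that were not members, 8 fell and 2 rose between -18 h and 0 h. Among these markers, prt had means of 8.54, 5.96 and 4.23 in the 3 groups in order of time, and ey 8.97, 8.66 and 8.75. The marker rut had 10.37, 10.64 and 10.43, and dac, at 4.52, 4.55 and 4.46, lay near the array medians. The general neuron markers elav and nSyb lay near the medians too, between 4.43 and 4.91. Of the 8 neuron markers measured, 3 (brp, futsch and ChAT) fell between -18 h and 0 h and 0 rose, and the mean over the 8 ranged from 5.47 to 6.17 in larvae, 5.26 to 5.56 at 0 h and 5.30 to 5.52 at 5 h. RNA of other tissues was seen in larvae, where the mean over 11 salivary gland genes ranged from 3.94 to 8.26 between arrays and that over 11 muscle genes from 4.43 to 6.0. At 0 h the ranges of these lists were 3.87 to 3.99 and 4.49 to 4.57. For 9 fat body genes the means ranged from 5.89 to 7.34, 5.49 to 6.56 and 6.12 to 7.04 in the 3 groups, and for 14 glial genes from 5.34 to 5.66, 5.32 to 5.88 and 5.64 to 5.83. The mean over 12 genes of cuticle, epidermis and discs ranged from 4.18 to 4.78, 4.19 to 4.29 and 4.27 to 5.27. Between -18 h and 0 h, 5 of the 14 glial genes rose and 3 fell, and 1 of the 9 fat body genes rose and 2 fell. In this step 0 of 13 neuroblast and cell cycle genes rose and 6 fell. Of 15 hemocyte and basement membrane genes 2 rose and 5 fell, of 10 photoreceptor genes 0 and 0, and of 7 tracheal and gut genes 0 and 2. At 5 h array 3 stood apart with the ecdysone-inducible ImpL1 at 7.09, which read 2.59 to 3.22 in the other 16 arrays, and the fat body gene Fbp1 read 7.34 to 8.93 at 5 h, 5.29 to 7.77 at 0 h and 5.28 to 7.04 in larvae. The glial transcription factor repo read 6.05 to 7.20, 6.99 to 8.21 and 7.35 to 7.71. The signal of the 3' probe set of eIF-4a exceeded that of its middle probe set, a measure of RNA or amplification quality, by 2.91 to 3.12 log2 in larvae, 2.53 to 3.0 at 0 h and 2.56 to 2.59 at 5 h. Of the 71 members, 0 were on any of the lists of markers of other cell types. These lists held 7 to 15 measured genes each and the rule took 0.579% of eligible probe sets, so this count says little. The part of these tissues and of RNA quality in the results below was not tested.

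All values below are log2 signals of a probe set, which can be compared between arrays but not between genes. Where 3 values are given for larvae or for 0 h they are the lowest, the median and the highest of 7 arrays, and the 3 values at 5 h are arrays 1, 2 and 3. The difference of means from -18 h to 0 h is called the step up, that from 0 h to 5 h the step down, and the smaller of both the height of the peak. Heights ran from 0.40 to 1.91 log2 (1.32-fold to 3.75-fold) with a median of 0.62. The step up had a median of 1.10 (2.15-fold) and a largest value of 5.44, and the step down a median of 0.65 (1.57-fold) and a largest value of 2.29. The height was at least 1 in 14 members and at least 0.5 in 52. The step up was the larger of both in 57 members and the step down in 14.

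**Figure D1:**
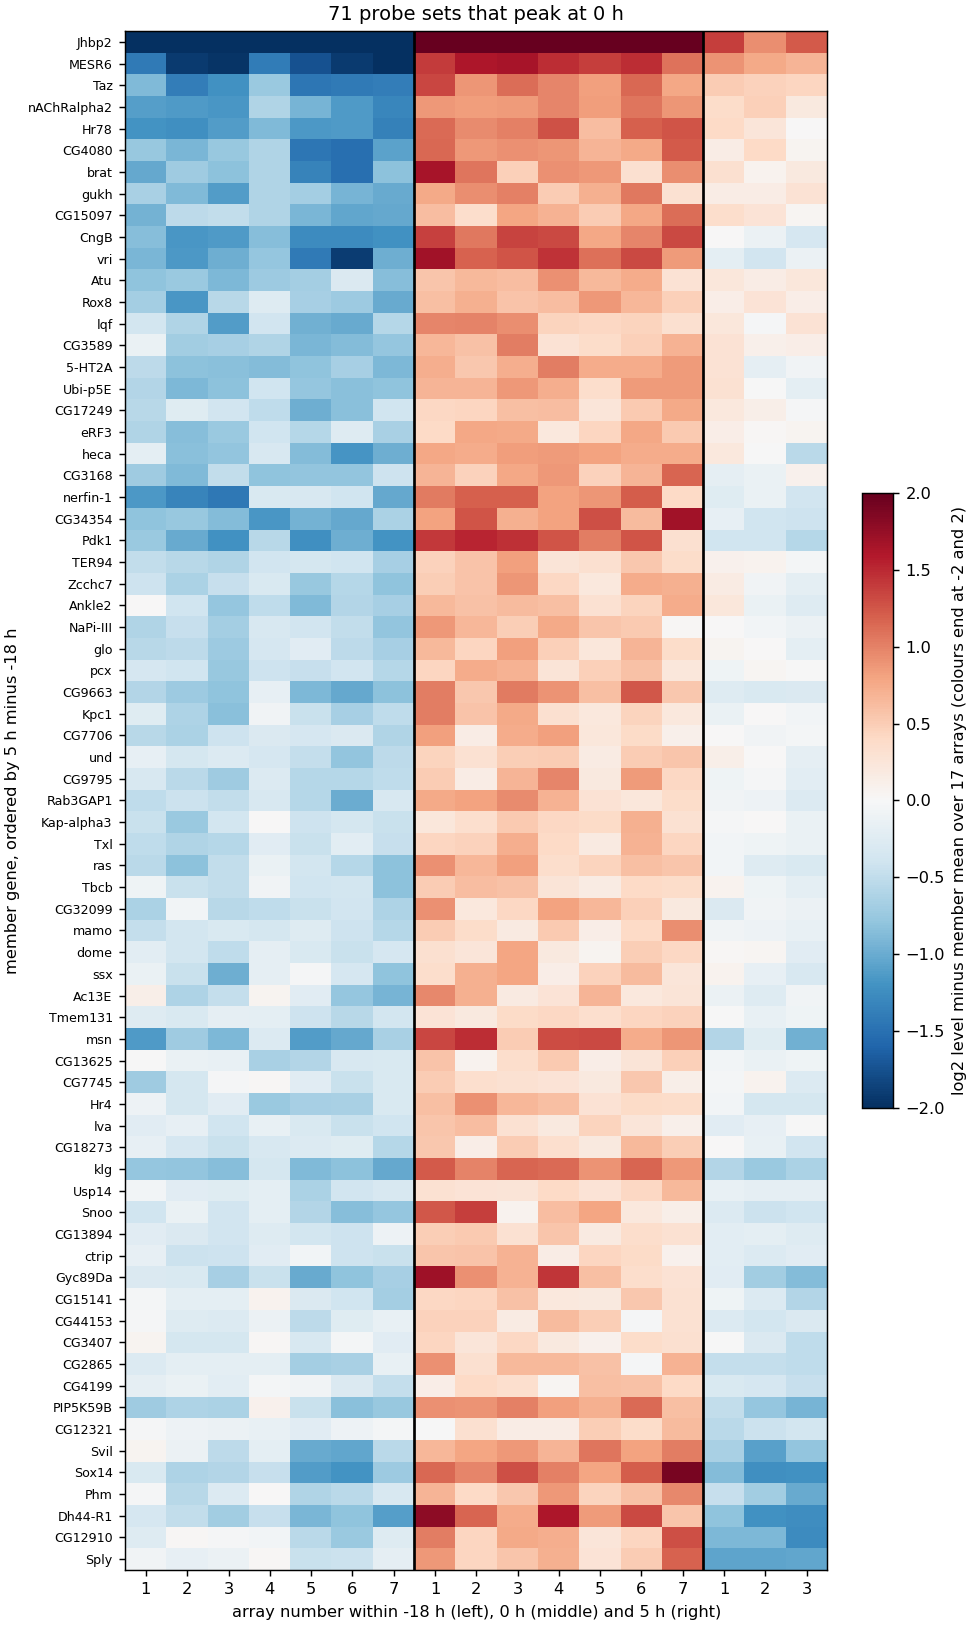
Levels of the 71 members in the 17 arrays, as log2 level minus the member's mean over all arrays, with larvae (-18 h) on the left, 0 h in the middle and 5 h on the right, and members ordered by the difference between 5 h and -18 h. The 0 h columns are the highest in every row because the rule chose them so. The 5 h columns run from above the row mean at the top, with Jhbp2 and MESR6, to below the larval values at the bottom, with Sply and CG12910.

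The members closest to the threshold show how the choice was drawn. Just inside it lay dome (height 0.42), CG17249 (0.41), CG12321 (0.41), CG3589 (0.41) and CG7745 (0.40). Just outside, with no overlap between 0 h and the other times, lay CG4882 (0.40), CG12081 (0.39), CG13578 (0.38), Cnot4 (0.38) and Ufd4 (0.37). In all, 100 eligible probe sets had no overlap, of which 29 had a height under 0.4. The excluded symbols would have added 8 probe sets, all of them proteasome subunits, with Rpn3 (0.92), Rpn2 (0.89), Rpt2 (0.68), Rpn7 (0.68) and Rpn6 (0.62) of the regulatory particle at the top. Rpt5 (0.48), Prosalpha6 (0.53) and Prosbeta2 (0.43) made up the rest. A further 6 probe sets met the values but had no symbol.

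The distance between the lowest 0 h array and the nearest array of another time differed widely among members. It was largest in klg (1.21 log2) and Sox14 (1.09) and had a median of 0.20. In brat it was 0.000308, where the lowest 0 h array and the first 5 h array both read 7.29. Averaged over the 71 members and set against the mean of the 0 h group, the larval arrays lay at -1.42 to -1.09, the 0 h arrays at -0.13 to 0.12 and the 5 h arrays at -0.92 to -0.75. The same average over all 13966 probe sets stayed between -0.03 and 0.04 in every array. Larval array 4 was the closest to the 0 h arrays, and 0 h array 5 had the lowest 0 h value for 22 members and array 7 for 20.

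What the rule did not fix is whether the level after the peak was back at the larval level, so 5 h was tested against -18 h. The arrays are those that chose the members and the steps up and down add to this difference, so the test is not independent of the choice. By limma, 31 of the 71 members (43.7%) were higher at 5 h than in larvae, 3 (4.23%) were lower, and 37 passed in neither direction. Over all 13966 probe sets, 20% passed, 11% higher and 9.06% lower. The median difference between 5 h and -18 h was 0.37 log2 over the members and -0.07 over all probe sets. Without the 5 larval arrays that held salivary gland or muscle RNA, 2 larval arrays remained, and 31 members were higher and 3 lower. The calls were not all the same ones, as 4 members lost theirs and 4 gained one. With 5 h array 1, 2 or 3 left out, 22, 23 and 28 members were higher, and without array 3 only 1 member, Sply, was lower. With any 1 larval or 0 h array left out the count of higher members was 29 to 40, and the 40 came without larval array 4.

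Among the 31 higher members the level at 5 h was 1.27 to 17.8 times the larval level, with a median of 1.73, and 9 were at least 2-fold higher. The 3 lower members, Sply, CG12910 and CG12321, were 1.26-fold to 1.80-fold lower. For the 37 others a miss of the threshold does not show a return to the larval level. Their 95% intervals had a median width of 0.61 log2, 26 of them had a 5 h mean above the larval one, and 21 had an interval reaching 0.5 log2 on either side. The groups at 5 h and -18 h did not overlap in 35 members, 32 with 5 h higher and 3 with 5 h lower, where 10% and 10.3% of all probe sets were so. The members were chosen on these same arrays by a condition on overlap, and all probe sets were not, so this is not a like comparison. The share of the step up that was lost by 5 h ran from 20.6% to 200.2%, with a median of 64.8%. It was over 100% in 14 members, between 50% and 100% in 39 and under 50% in 18. The 20 members with the highest peaks had 6 higher, 1 lower and 13 without a call, and the other 51 had 25, 2 and 24.

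**Figure D2:**
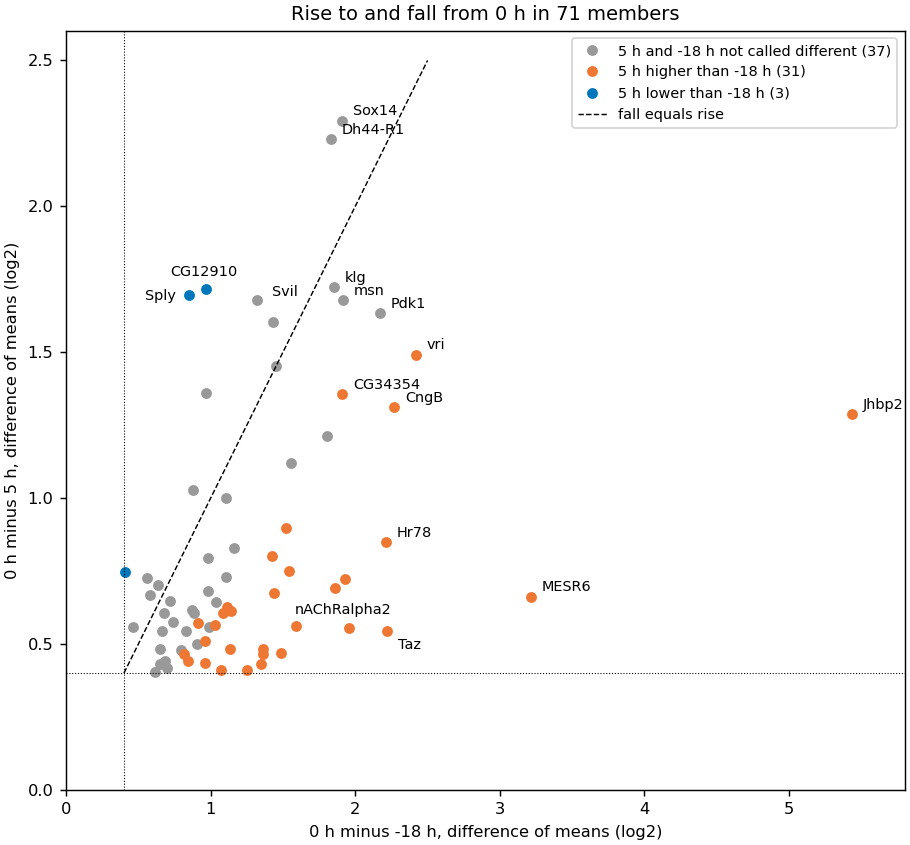
Step up (0 h minus -18 h, x axis) against step down (0 h minus 5 h, y axis) for the 71 members, both as differences of log2 means. Dotted lines mark the threshold of 0.4, the dashed line marks equal steps, and colours give the limma call of 5 h against -18 h. Jhbp2 lies at a step up of 5.44 and a step down of 1.29, while Sox14 has the largest step down, 2.29.

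The members with known roles in transcription were Sox14, vri, Hr78, Hr4, nerfin-1, mamo, Snoo and Atu. Of these 8, 3 were higher at 5 h than in larvae (vri, Hr78 and Atu), 0 were lower and 5 had no call. Sox14 (probe set 143552_at), a high-mobility-group factor induced by ecdysone, had the highest peak of all members. It read 6.29, 6.87 and 7.20 in larvae, 8.28, 8.64 and 9.39 at 0 h, and 6.62, 6.27 and 6.28 at 5 h. At 5 h, 1 array lay within the larval range and 2 just below its lower end, with a difference between 5 h and -18 h of -0.39 (SE 0.20, adjusted p = 0.185). vri (143869_at) encodes a bZIP repressor of the circadian clock that is also known as an ecdysone-induced gene. It read 8.67, 9.59 and 9.80 in larvae, 11.42, 11.82 and 12.25 at 0 h, and 10.38, 10.19 and 10.45 at 5 h. All 3 of its 5 h arrays lay between the larval and the 0 h range, 0.93 log2 above the larval mean (SE 0.19, 1.91-fold, adjusted p = 0.001).

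Hr78 (152160_at) and Hr4 (144004_at) are nuclear receptors, the family to which EcR belongs. Hr78 read 6.67, 6.86 and 7.14 in larvae, 8.64, 9.16 and 9.29 at 0 h, and 8.41, 8.26 and 8.02 at 5 h. Its level at 5 h was 2.57 times that in larvae (1.36 log2, SE 0.13, adjusted p = 8.12e-08), with 38.4% of the step up lost. Hr4 read 4.22, 4.62 and 4.86, then 5.25, 5.57 and 5.88, then 4.91, 4.62 and 4.62, so 1 of its 5 h arrays lay just above the larval range and 2 within it. The difference between 5 h and -18 h in Hr4 was 0.19 (95% interval -0.12 to 0.49, adjusted p = 0.403). On only the arrays with the lower signal of the spike-in control probe sets, Hr4 was called higher (0.44 log2, adjusted p = 0.0177).

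nerfin-1 is a zinc finger factor of young neurons, and its larval arrays were spread from 6.92 to 8.05, with 3 near 8 and 4 between 6.92 and 7.33. At 0 h it read 8.74, 9.39 and 9.56, and at 5 h 8.10, 8.21 and 7.97. It was not called between 5 h and -18 h (0.59 log2, adjusted p = 0.071), and the call appeared without larval array 4 (adjusted p = 0.0277), 5 (0.0339) or 6 (0.037). These are the 3 high ones and also the 3 larval arrays with the lower signal of the spike-in control probe sets. They are also among the 5 larval arrays with salivary gland or muscle signal, without which nerfin-1 was called at 1.12 log2 (adjusted p = 0.000626). With the replicate number as a block it was called too (0.73 log2, adjusted p = 0.0397). All 3 of the 5 h arrays had the lower spike-in signal as well, and larval arrays 4, 5 and 6 read 8.05, 8.02 and 7.95. On only the arrays of lower spike-in signal, or when blocked on spike-in level, nerfin-1 had no call. Its highest adjusted p among the alternatives was 0.718. mamo, a zinc finger factor expressed in mushroom body neurons, read 5.02, 5.23 and 5.33, then 5.72, 5.99 and 6.52, then 5.52, 5.48 and 5.45. Its 5 h arrays all lay above the larval range by a small margin (0.28 log2, adjusted p = 0.122). Snoo, a Ski/Sno-type partner of Smad proteins, was the dimmest of these members, with 2.65 to 3.37 in larvae, 3.57 to 4.89 at 0 h and 3.08 to 3.23 at 5 h. Atu, a Leo1-type subunit of the Paf1 complex, kept most of its step up, with 6.95 to 7.03 at 5 h against 5.90 to 6.51 in larvae (0.92 log2, adjusted p = 9.46e-06).

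**Figure D3:**
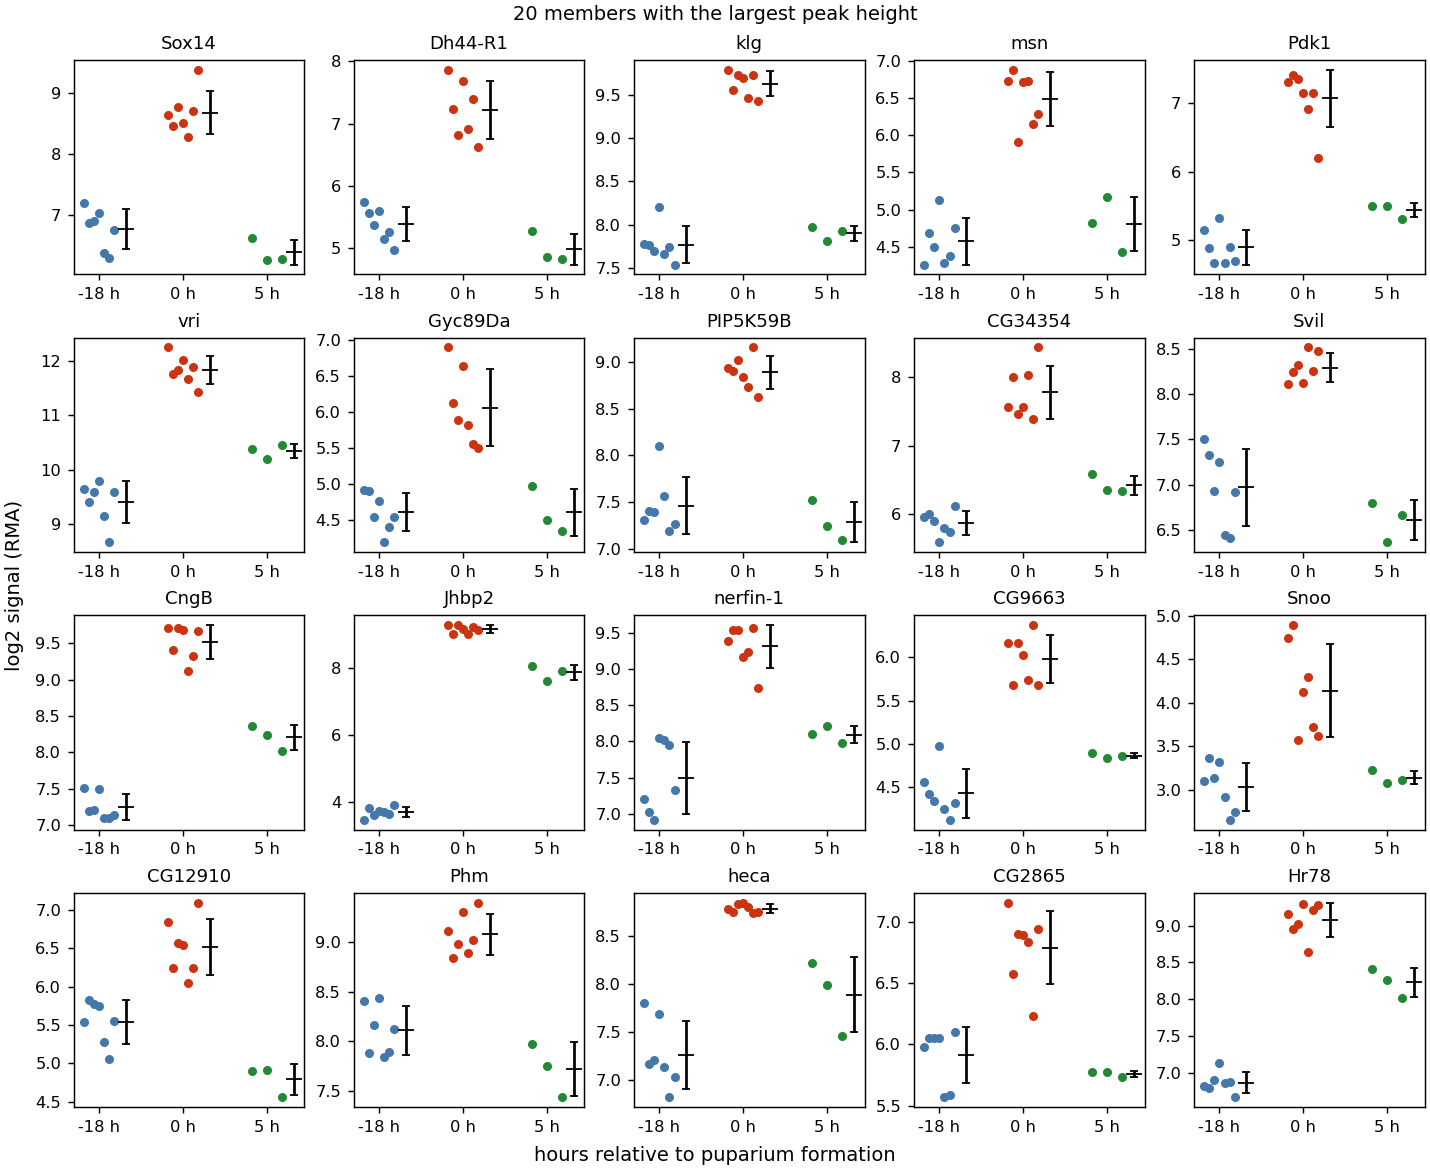
Log2 signal of the 20 members with the highest peaks in each array, with larvae (-18 h) in blue, 0 h in red and 5 h in green, and the mean and SD of each group as black bars. Axes differ between panels and do not start at 0. The 5 h points lie within or below the larval range for Sox14, Dh44-R1, PIP5K59B and Svil, and above it for vri, CngB, Jhbp2 and Hr78.

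Of the 5 members that act as receptors, channels or peptide-processing enzymes, 3 were higher at 5 h (nAChRalpha2, CngB and 5-HT2A), 0 were lower and 2 had no call. Dh44-R1 (152546_at), a receptor for the diuretic hormone related to corticotropin-releasing factor, had the second highest peak. It read 4.97, 5.38 and 5.74 in larvae, 6.63, 7.23 and 7.86 at 0 h, and 5.27, 4.86 and 4.83 at 5 h. Of its 5 h arrays, 1 lay within the larval range and 2 just below it (-0.40 log2, 95% interval -0.85 to 0.06, adjusted p = 0.217). CngB (152694_at), a subunit of cyclic nucleotide-gated channels, read 7.10, 7.19 and 7.5, then 9.12, 9.67 and 9.71, then 8.36, 8.24 and 8.01. The 5 h arrays of CngB stood between both ranges, 1.94-fold above larvae (SE 0.13 log2, adjusted p = 1.75e-05). nAChRalpha2, an acetylcholine receptor subunit, read 7.26, 7.43 and 7.97, then 9.39, 9.42 and 9.64, then 8.93, 9.04 and 8.77. It lost 28.3% of its step up and was 2.64-fold above larvae at 5 h (adjusted p = 1.45e-08).

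The serotonin receptor 5-HT2A read 5.00, 5.07 and 5.36 in larvae, 6.44, 6.64 and 6.92 at 0 h, and 6.19, 5.72 and 5.83 at 5 h. It stayed 1.73-fold above larvae (adjusted p = 1.8e-05). Phm makes the amide end of many neuropeptides. Its arrays read 7.84, 8.13 and 8.44, then 8.84, 9.02 and 9.40, then 7.97, 7.75 and 7.43. Arrays 2 and 3 at 5 h lay below the larval range and array 1 within it (-0.39 log2, adjusted p = 0.0743). The call was made with quantile normalisation (adjusted p = 0.0172), without 5 h array 1 (0.047) or without larval array 5 (0.0483). Phm and Sox14 were the only members next to each other in the RefSeq Release 6 order of protein-coding genes, with 0 genes between them, and their annotated spans meet. No other members of the 70 placed in that order had at most 1 gene between them.

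The 7 signalling enzymes and receptors had peak heights from 0.42 to 1.68 log2, with a median of 1.43. Of these, 1 was higher at 5 h than in larvae and the other 6 had no call. msn (148051_at), a Ste20-type kinase upstream of the JNK pathway, read 4.26, 4.50 and 5.13 in larvae, 5.91, 6.71 and 6.88 at 0 h, and 4.82, 5.16 and 4.43 at 5 h. Its larval and 5 h values were mixed (0.23 log2, 95% interval -0.20 to 0.67, adjusted p = 0.468). Pdk1 (142677_s_at), the kinase that activates Akt, read 4.67, 4.88 and 5.33, then 6.20, 7.15 and 7.41, then 5.49, 5.50 and 5.32. The lowest 0 h value of Pdk1, in array 7, was 0.71 below the next one. The difference between 5 h and -18 h in Pdk1 was 0.53 (adjusted p = 0.0602). It was called without 0 h array 7 (adjusted p = 0.00728), without larval array 4 (0.0271) or with dim probe sets left out (0.0461).

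PIP5K59B, which makes the membrane lipid phosphatidylinositol bisphosphate, read 7.19, 7.39 and 8.10, then 8.62, 8.91 and 9.16, then 7.52, 7.24 and 7.10. Gyc89Da, an atypical guanylyl cyclase, read 4.19, 4.54 and 4.92, then 5.50, 5.89 and 6.89, then 4.97, 4.50 and 4.34. In both, the 5 h arrays lay in or near the larval range. The interval for 5 h against -18 h was -0.50 to 0.15 in PIP5K59B (adjusted p = 0.474) and -0.51 to 0.51 in Gyc89Da (adjusted p = 0.997). Ac13E, an adenylyl cyclase, and dome, the receptor of the JAK/STAT pathway, had lower peaks, with heights of 0.62 and 0.42 and no call. pcx, a membrane protein known from Notch signalling, was the member with a call, at 4.50, 4.86 and 4.94, then 5.49, 5.74 and 6.01, then 5.18, 5.30 and 5.26 (0.45 log2, adjusted p = 0.00667).

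In the group of adhesion, cytoskeleton and synapse genes, klg, Svil, gukh and Tbcb, 1 of 4 was higher at 5 h (gukh). klg (151630_at) is an immunoglobulin adhesion molecule known for its part in long-term memory. It read 7.54, 7.75 and 8.21 in larvae, 9.42, 9.69 and 9.79 at 0 h, and 7.97, 7.81 and 7.93 at 5 h. These 5 h values lay within the larval range, 0.13 log2 from its mean (95% interval -0.11 to 0.37, adjusted p = 0.473). Svil, a supervillin that ties actin to the membrane, read 6.41, 6.92 and 7.51, then 8.11, 8.25 and 8.51, then 6.80, 6.36 and 6.67. gukh, which binds the scaffold proteins Dlg and Scrib at the neuromuscular synapse, differed from the other 3 in keeping most of its step up. It read 5.84, 6.09 and 6.36, then 7.27, 7.72 and 8.02, then 7.11, 7.11 and 7.26, which is 2.05-fold above larvae at 5 h (adjusted p = 1.75e-05). Tbcb, a tubulin folding cofactor, had a height of 0.48 and no call (0.32 log2, adjusted p = 0.108).

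Protein turnover and maturation gave 7 members, of which 4 were higher at 5 h and 0 lower. Ubi-p5E (144587_f_at) encodes polyubiquitin, and its probe set carries the suffix for probes shared within a gene family, so other ubiquitin genes may add to its signal. It read 10.16, 10.25 and 10.65 in larvae, 11.40, 11.78 and 11.92 at 0 h, and 11.36, 11.05 and 10.87 at 5 h. Its first 5 h array nearly reached the lowest 0 h array, and 5 h was 1.70-fold above larvae (adjusted p = 0.000119). TER94, the p97 ATPase that draws ubiquitinated proteins out of complexes, read 9.78, 9.97 and 10.10, then 10.71, 10.91 and 11.26, then 10.54, 10.52 and 10.41. It was 1.44-fold above larvae at 5 h (adjusted p = 0.000937). Usp14, a deubiquitinase of the proteasome, read 6.34, 6.73 and 6.91, then 7.22, 7.28 and 7.62, then 6.82, 6.78 and 6.78, back in the larval range (0.12 log2, adjusted p = 0.478).

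Of the other members in this group, the ubiquitin ligases Kpc1 and ctrip had heights of 0.56 and 0.65 and no call. Txl, a thioredoxin-like protein (0.34 log2, adjusted p = 0.0346), and und, a methionine aminopeptidase (0.40 log2, adjusted p = 0.0188), were higher at 5 h. Both calls were lost without 5 h array 1 (adjusted p = 0.125 and 0.121) or array 2 (0.11 and 0.078). That of Txl was also lost without 5 h array 3 (0.0749) and without larval arrays 1, 2, 3 or 7 (0.051 to 0.063), when blocked on spike-in level (0.161) and on only the arrays of lower spike-in signal (0.255), which hold all 3 of the 5 h group. The call of und was also lost with quantile normalisation (0.0603), with the replicate block (0.0866) and without the larval arrays with salivary gland or muscle signal (0.116).

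Of the 5 RNA-binding and translation factors, 4 were higher at 5 h and 0 lower. brat (153872_at), a TRIM-NHL protein that represses translation, read 5.46, 6.15 and 6.38 in larvae, 7.29, 7.88 and 8.63 at 0 h, and 7.29, 7.03 and 7.17 at 5 h. Its 5 h arrays lay against the lower end of the 0 h range and 2.25-fold above larvae (1.17 log2, SE 0.22, adjusted p = 0.000435). Rox8, a TIA-1-type RNA-binding protein, read 6.10, 6.60 and 7.01, then 7.75, 7.89 and 8.14, then 7.41, 7.55 and 7.40 (1.87-fold, adjusted p = 5.47e-05). eRF3, a translation release factor, read 6.17, 6.43 and 6.76, then 7.24, 7.56 and 7.81, then 7.16, 7.05 and 7.09 (1.57-fold, adjusted p = 0.000828). In both, all 5 h arrays lay between the larval and the 0 h ranges. glo, an hnRNP F/H protein, was 1.38-fold higher (adjusted p = 0.00909), which was lost without 5 h array 1 (0.0636) or 2 (0.0535), when blocked on spike-in level (0.0549) and on only the arrays of lower spike-in signal (0.112). ssx, a relative of Sex-lethal, had no call (0.28 log2, adjusted p = 0.302).

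Of 4 members in membrane traffic and nuclear import, 2 were higher at 5 h. lqf, an epsin of endocytosis, read 4.26, 4.78 and 5.02, then 5.70, 5.83 and 6.38, then 5.61, 5.36 and 5.67, just under its lowest 0 h array (1.84-fold above larvae, adjusted p = 0.00103). Kap-alpha3, an importin alpha, was at the threshold, 1.27-fold higher with an adjusted p of 0.0494, and passed in 6 of the 24 alternative analyses. Rab3GAP1, a regulator of Rab GTPases, and the Golgi protein lva had no call (0.37 and 0.17 log2, adjusted p = 0.0963 and 0.306).

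Of the 5 members in metabolism and transport, 2 were higher at 5 h and 1 was lower. Sply (141536_at), sphingosine-1-phosphate lyase, read 8.12, 8.41 and 8.59 in larvae, 8.85, 9.12 and 9.76 at 0 h, and 7.52, 7.51 and 7.54 at 5 h. All 3 of its 5 h arrays lay below the lowest larval array, and the mean difference was -0.85 log2 (SE 0.15, 1.80-fold lower, adjusted p = 0.0002). It lost 200.2% of its step up. Taz (144150_at), the tafazzin that remodels cardiolipin in mitochondria, read 5.08, 5.14 and 5.78, then 7.29, 7.49 and 7.86, then 7.03, 6.98 and 6.96. It lost 24.5% of its step up and was 3.19-fold above larvae at 5 h (adjusted p = 2.95e-08). NaPi-III, a phosphate transporter, was 1.40-fold higher (adjusted p = 0.0152), a call lost without 5 h array 1 (0.0715) or 2 (0.0586), when blocked on spike-in level (0.0898) and without the larval arrays with salivary gland or muscle signal (0.0517). ras, which makes guanine nucleotides as IMP dehydrogenase, and CG9663 had no call (adjusted p = 0.0993 and 0.0641).

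The largest steps up of all belonged to Jhbp2 and MESR6, in a group of 6 members of which 5 were higher at 5 h. Jhbp2 (149304_at), named for juvenile hormone binding, read 3.47, 3.70 and 3.90 in larvae, 8.99, 9.15 and 9.26 at 0 h, and 8.05, 7.60 and 7.90 at 5 h. The larval values lay below the median of all probe sets on every array, and whether they exceeded background was not tested, so the folds are those of the RMA signal and can understate the change. On that scale the step up was 43.3-fold, and 5 h stood 17.8-fold above larvae (4.15 log2, SE 0.11, adjusted p = 2.28e-16). MESR6 (154121_at) read 6.26, 6.42 and 6.93, then 9.41, 9.80 and 9.98, then 9.23, 9.09 and 9.0. It lost 20.6% of its step up, the least of all members, and stood 5.87-fold above larvae (adjusted p = 2.7e-11). heca, the fly headcase gene, had very tight 0 h values, 8.74, 8.78 and 8.85, against 6.82, 7.17 and 7.81 in larvae and 8.22, 8.0 and 7.46 at 5 h. It was 1.54-fold higher at 5 h (adjusted p = 0.0117), a call lost without 5 h array 1 (0.123) or 2 (0.0702) and on only the arrays of lower spike-in signal (0.0543). Ankle2, a protein of the nuclear envelope (1.40-fold, adjusted p = 0.0235), lost its call without 5 h array 1 (0.189) or 2 (0.0532), and Zcchc7 (1.44-fold, adjusted p = 0.00635) without array 1 (0.067). Tmem131 had no call (adjusted p = 0.0658).

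The 20 remaining members have only bare annotation names, with 6 higher at 5 h, 2 lower and 12 without a call. CG34354 had the highest peak among them, at 5.59, 5.89 and 6.11 in larvae, 7.39, 7.56 and 8.44 at 0 h, and 6.58, 6.34 and 6.33 at 5 h. It was 1.47-fold above larvae at 5 h (adjusted p = 0.0286), a call lost without any 1 of the 5 h arrays (adjusted p = 0.144, 0.0674 and 0.0583), with quantile normalisation (0.0994) and without the larval arrays with salivary gland or muscle signal (0.172). CG12910 (152695_at) read 5.06, 5.55 and 5.83, then 6.05, 6.54 and 7.09, then 4.90, 4.92 and 4.56, with all 5 h arrays below the larval range. Its difference of -0.75 log2 passed (SE 0.19, 1.68-fold lower, adjusted p = 0.00721) and did not without 5 h array 3 (0.0616) or on only the arrays of lower spike-in signal (0.0637). CG12321, with the smallest step up of all members (0.41 log2), was 1.26-fold lower at 5 h (adjusted p = 0.0339). That call was lost without any 1 of the 5 h arrays (0.157, 0.0926 and 0.0614) and in 6 of the other alternatives. CG2865, also among the 20 highest peaks, had no call (-0.15 log2, adjusted p = 0.542). The other members with a call were CG4080 (2.31-fold), CG15097 (2.02-fold), CG3589 (1.79-fold), CG17249 (1.58-fold) and CG3168 (1.54-fold), with adjusted p-values from 2.03e-05 to 0.00165.

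**Figure D4:**
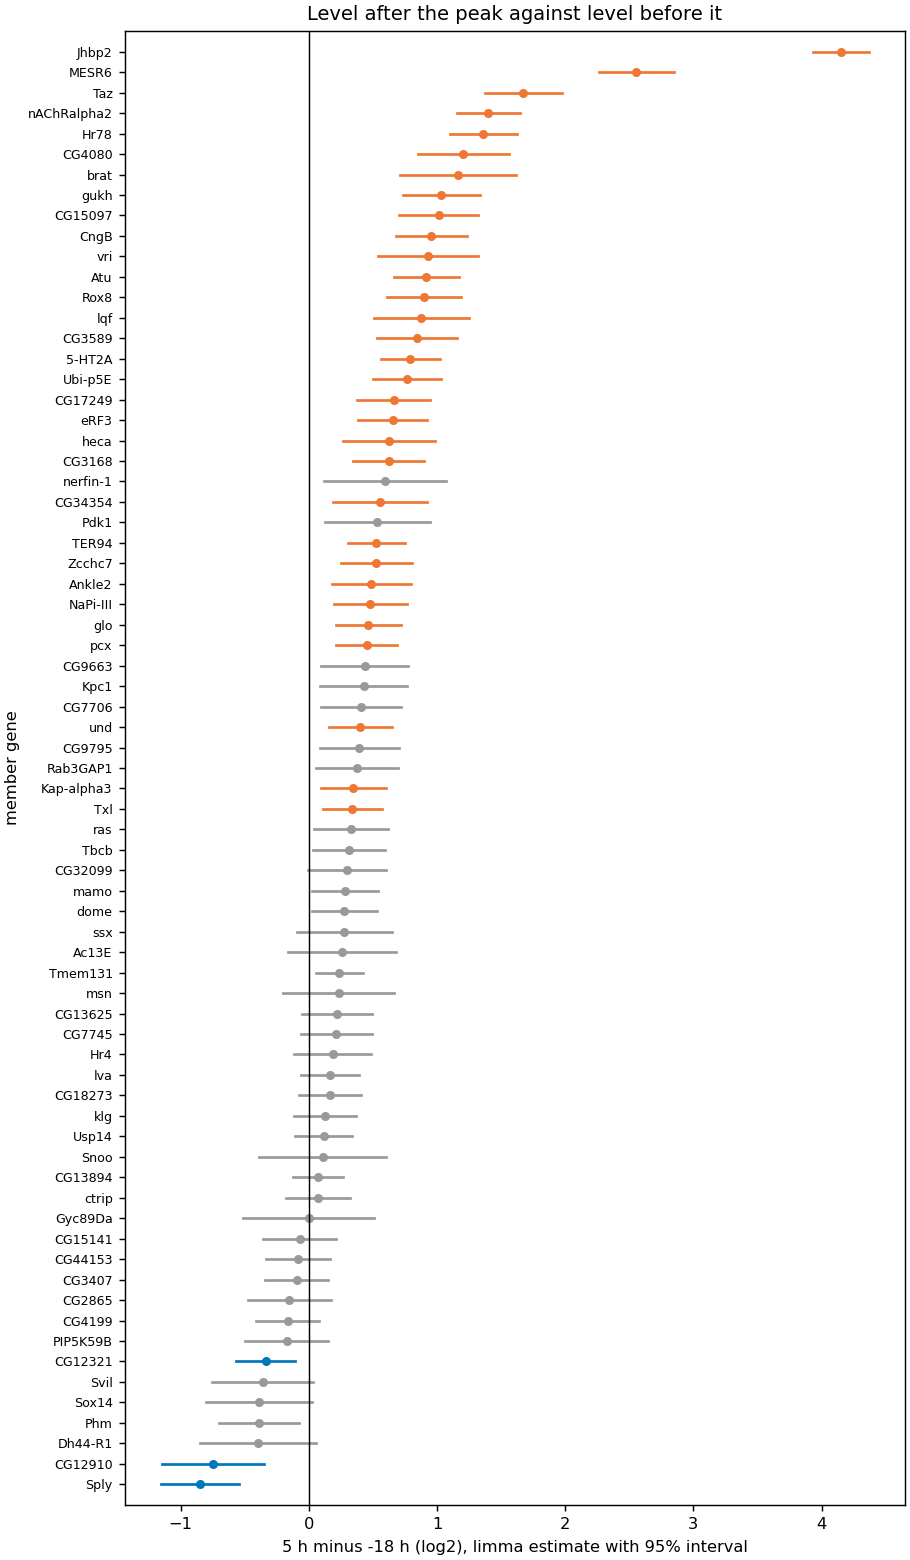
Difference between 5 h and -18 h for the 71 members, as limma's estimate with its 95% interval on the log2 scale, in orange where 5 h was higher, in blue where it was lower and in grey where there was no call. The estimates run from 4.15 in Jhbp2 to -0.85 in Sply.

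Another probe set of the same gene could be compared for 17 members, which had 30 others between them, while 54 genes had a single probe set. Of the 30, 0 met the rule's condition of no overlap, 18 had their highest mean at 0 h, and 10 had a mean under 4 log2 over the arrays. The second klg probe set had means of 3.14, 3.24 and 3.04 at -18 h, 0 h and 5 h, and the second Hr4 probe set 3.07, 3.08 and 2.99. Both thus lay at the dim end of the arrays with little difference between times. The second nerfin-1 probe set read 4.23, 4.39 and 4.36. Those of brighter signal also stayed flat in gukh (4.76, 4.65 and 4.61) and Rab3GAP1 (5.31, 5.21 and 5.18). In Snoo and CG44153 the member probe set was dim, and a brighter one of the same gene did not peak. The second Snoo probe set had means of 5.12, 5.09 and 5.01, and the brightest of CG44153 had 5.44, 5.39 and 5.31.

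Svil had 5 other probe sets, of which 2 followed the member's shape, with means of 3.64, 4.67 and 4.14 and of 4.94, 5.61 and 4.91, and the other 3 differed by at most 0.07 log2 between -18 h and 0 h. These probe sets disagreed on 5 h against -18 h. The first of these followers was higher at 5 h (0.50 log2, adjusted p = 0.012) and a flat probe set was lower (-0.30 log2, adjusted p = 0.0238), while the member itself had no call. The second Usp14 probe set, at 5.42, 5.34 and 4.94, was lower at 5 h than in larvae (-0.47 log2, adjusted p = 0.00309) and showed no peak. The peaks of these 17 genes are therefore those of the probe set named, not of every probe set of the gene.

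**Figure D5:**
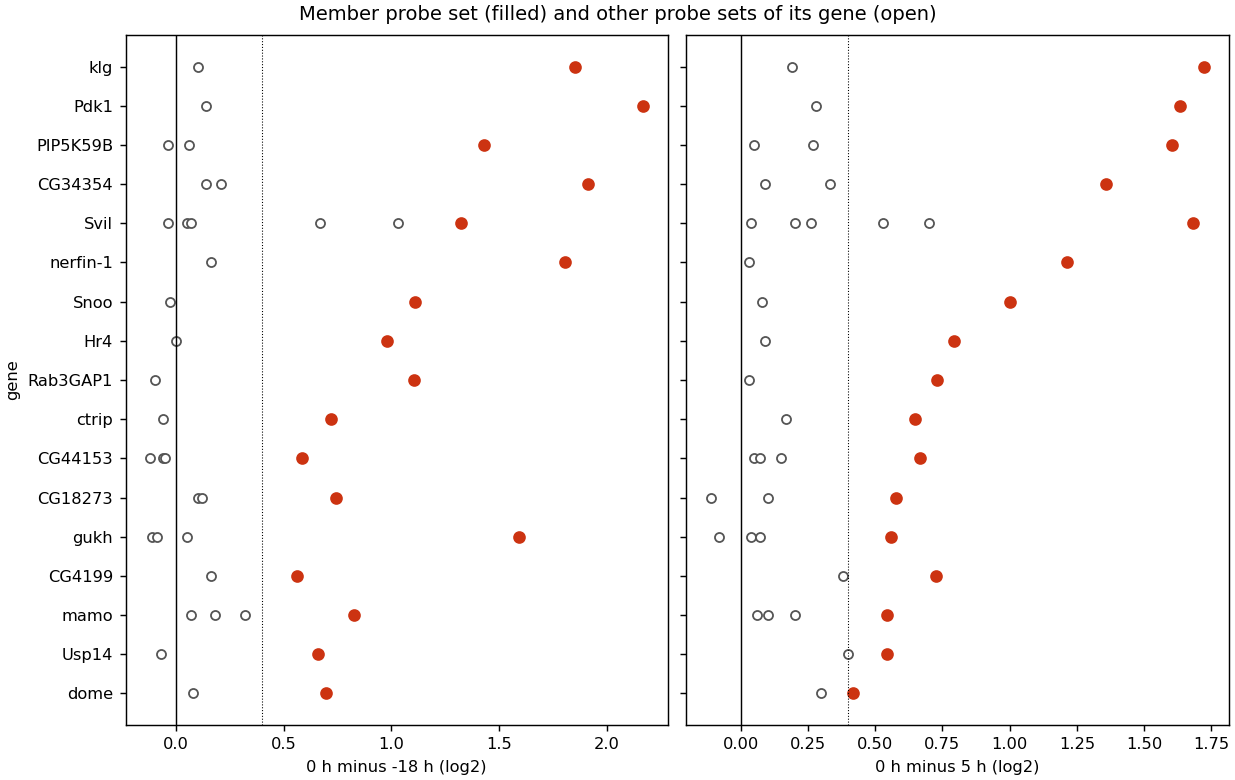
Step up (left) and step down (right) on the log2 scale for the 17 genes with more than 1 probe set, with the member probe set filled and the gene's other probe sets open. Dotted lines mark 0.4. On the left, 2 of the 30 open points lie beyond the line, both of Svil.

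The members were also set beside the other measured genes of the pathways they belong to. Each list is counted here without its members, which were taken out because they peak, so the counts describe what remains of it. Of 35 measured ecdysone response genes, 4 were members (Sox14, vri, Hr78 and Hr4). Among the 31 others, 8 rose and 3 fell between -18 h and 0 h, and 1 rose and 3 fell between 0 h and 5 h, with median differences of -0.04 and -0.05. Over all probe sets 25.5% passed in the first step, 13.6% rising and 11.9% falling, and 3.77% in the second, 2.36% rising and 1.42% falling. The hormone receptor EcR fell in both steps, with means of 5.78, 5.15 and 4.21, and so did the zinc finger factor br, with 8.53, 7.38 and 6.46. ImpE1, an ecdysone-inducible gene, rose in both, with 4.21, 5.42 and 6.55. For EcR (2 probe sets), br (3) and ImpE1 (2) these values are of the probe set with the highest mean, and the others are not given here. Kr-h1, a zinc finger factor that answers juvenile hormone and ecdysone, also rose and then fell, with 5.12, 6.19 and 5.21. It rose by 1.07 log2 (adjusted p = 5.8e-05) and fell by 0.97 (adjusted p = 0.0148), with overlap between larval and 0 h arrays.

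Of eligible probe sets 0.579% were members, and of all probe sets 13.6% rose and 11.9% fell in the first step. Those shares apply to each list below, and no list was tested against them. Of 47 measured genes known from axon pruning, 2 were members (Sox14 and heca). Among the other 45, 13 rose and 3 fell in the first step, and 1 rose and 2 fell in the second. The proteasome subunit Rpn6, which met the rule's values but has an excluded symbol, rose and then fell (8.40, 9.32 and 8.70). The ubiquitin and SUMO list had 3 members among 42 (Ubi-p5E, Usp14 and TER94), and of the other 39, 13 rose and 2 fell at the first step and 1 rose and 1 fell at the second. Ufd4, a ubiquitin ligase just under the height threshold, rose from 7.80 to 8.78 and fell to 8.41. Among 35 genes of the JNK, EGFR, TGF-beta, Notch, Wnt and Hedgehog pathways msn was the only member, and 6 of the other 34 rose and 3 fell at the first step. The 35 ion channel genes had 2 members (CngB and nAChRalpha2), with 5 of the other 33 rising and 8 falling. The 21 mushroom body markers had 1 (mamo), with 2 of the other 20 rising and 8 falling.

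Several lists had 0 members. For actin, microtubules and motors (36 genes), 12 rose and 3 fell at the first step, and 3 rose and 3 fell at the second. The latter 3, the microtubule-severing spas (5.48, 7.55 and 6.67), the kinesin subunit Kap3 (3.82, 4.90 and 4.37) and the microtubule-tip protein CLIP-190 (5.98, 6.59 and 5.84), rose and then fell, each with overlap between the 0 h arrays and those of another time. Heat shock and protein folding genes (27) had 18 rises and 2 falls, membrane trafficking genes (43) 19 and 4, and autophagy genes (28) 11 and 2 at the first step. At the second step these had 1 rise and 1 fall, 0 and 0, and 0 and 0. Synaptic vesicle and active zone genes (24) had 2 rises and 12 falls at the first step and 0 and 1 at the second, and transport genes (36) had 5 and 10, then 1 and 0. Apoptosis genes (16) had 3 and 1, then 0 and 0.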

How the data were processed

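Messenger RNA of laser-captured mushroom body neurons was measured on 17 Affymetrix arrays, 1 per pool. The deposited values are log2 signals per probe set, which the authors obtained by RMA (robust multi-array average). The submitters' processing notes name Affymetrix Expression Console as the software. Not given in the sources used here are software versions and whether the arrays were normalised jointly. RMA sets the arrays to a common distribution, so a change shared by most genes would not appear. Nothing was renormalised for the results reported, the labels placed all 17 columns in groups, and 44 control probe sets were left out of 14010. Precision is limited by the number of arrays, as there is no read depth.

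Symbols came from the array's annotation, with 12443 probe sets holding 1 symbol, 327 several and 1196 none, and all 71 members were matched to RefSeq Release 6, used for names and gene order only. A model with 3 groups was fitted over all 13966 probe sets by lmFit and eBayes of limma 3.58.1 (R 4.3.3, statmod 1.5.0). Tests were two-sided. The Benjamini-Hochberg adjustment ran across the whole array, and 0.05 was the threshold. The code was tested on simulated data.

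The members, the gene lists and the tests were chosen with earlier results of these data known. Role groups were assigned after the members were known. Named are the 20 highest peaks, 5 probe sets on either side of the height threshold, the 5 largest differences in each direction between -18 h and 5 h, members on a pathway list, and members with other probe sets, with up to 3 for each role. Other members given values were chosen after their values were seen. For a listed gene with several probe sets, the one with the highest mean was used. Same-numbered arrays of different groups had correlated deviations of -0.28 to 0.37, so the numbers were not taken to pair the arrays. Alternatives were quantile normalisation, a filter on dim probe sets, robust eBayes with a trend, blocks for replicate number and spike-in level, only arrays of lower spike-in signal, only larval arrays without salivary gland or muscle signal, other heights, and leaving out each array.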

Additional observations from a re-analysis of the deposited data

Results flagged for a closer look

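Of 142 sets of 7 values (71 members at -18 h and at 0 h), 9 held an array that stood apart from the other 6 by Dixon's criterion, which chance alone meets in about 1 of 20 sets. At 0 h these were Pdk1 in array 7 (6.20, with the next at 6.91), Usp14 in array 7 (7.62, next 7.38) and Ubi-p5E in array 5 (11.40, next 11.70). Pdk1 and Ubi-p5E were low there and Usp14 was high. In larvae, PIP5K59B (8.10, next 7.57) and klg (8.21, next 7.78) were high in array 4, CG32099 in array 2 (5.66, next 5.32), CG3589 in array 1 (5.60, next 5.14) and Atu in array 6 (6.51, next 6.12). Rab3GAP1 was low in larval array 6 (4.56, next 4.99). Groups of 3 arrays were not examined.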

How the results depend on the processing

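The number of genes that meet the rule depended on its height and on the arrays. It was 40 at a height of 0.6 log2 and 137 with only the arrays of lower spike-in signal (3 larval, 4 at 0 h and 3 at 5 h), against 71, and 68 of the 71 were among the 137. With quantile normalisation 78 genes met it, 70 of them members, and without the larval arrays with salivary gland or muscle signal 92, all 71 included. Leaving out 1 array gave 69 to 97 genes, and at least 64 of the 71 stayed. With fewer arrays the condition of no overlap can only become easier to meet, so a member could be lost only through its height. The counts on fewer arrays therefore do not test whether the members hold.

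Against the 31 members higher at 5 h than in larvae, leaving out 1 array gave 22 to 40, and against the 3 lower ones 1 to 4. Over all probe sets it gave 1938 to 3274 calls against 2799. With only the arrays of lower spike-in signal, 1 member was lower and 30 were higher. With the replicate number as a block, which the check of pairing did not call for, 32 members were higher, 3 lower and 2682 of all probe sets were called. In this block Dh44-R1 was lower at 5 h (adjusted p = 0.0101) and the calls of CG12321 and und were lost. Of the 34 calls, 23 held in each of the 24 alternatives, and 16 of the 37 uncalled members were called in at least 1. No member changed direction while called. The spread at 5 h rests on 3 arrays, and 3 members lay under a mean of 4 log2, below the median of every array.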
